A study of Mus musculus with 20 samples.

Results

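Il6, Lif, Osm, Il10 and the subunit genes of the IL-12 family (Il12a, Il12b, Il23a, Il27 and Ebi3) were followed in dendritic cells given immune complexes and the BET inhibitor iBET. These 9 genes were taken by symbol from a count table of 24421 genes, and all 9 were in it. Reads sufficed to test 5 of them (Il6, Lif, Osm, Il12b and Ebi3) among 12465 genes, while Il10, Il12a, Il23a and Il27 had at most 8 reads in a library and were described by their counts.

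Bone marrow-derived dendritic cells (BMDCs) were grown from 5 wild-type C57BL/6 mice (A to E) for 8 days in medium with 40 ng/mL GM-CSF. Every culture was split and given DMSO or I-BET151 (iBET, 3.3 μM), a small molecule that blocks the binding of BET proteins to acetylated histones, together with ovalbumin (Ova) or IgG-opsonised ovalbumin immune complexes (IC) for 4 hours. The resulting groups were DMSO Ova and iBET Ova, and DMSO IC and iBET IC, with 5 libraries each and 1 library per mouse in every group. The methods place iBET before the stimulus, and the labels place both together. DMSO, the solvent of the iBET stock, is labelled as 5% in the cultures without iBET, and no label states its content in those with iBET. Libraries held between 16447491 and 29245150 counts, with a median of 21764663.

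GM-CSF cultures of bone marrow hold more than 1 kind of myeloid cell, and the labels state that cells were sorted without naming the gate. The summed level of 8 dendritic cell markers, all with reads, was 4458 to 9037 CPM (counts scaled to library size, TMM-normalised) over the 20 libraries. Cd74 and Itgax made up most of this sum (means of 2661 and 1962 CPM in DMSO Ova). Zbtb46 (24.5 CPM), Flt3 (3.03 CPM) and Cd209a (0.281 CPM) added little to it. The 6 macrophage markers, all with reads, summed to 1305 to 1962 CPM in the DMSO libraries and 883 to 1432 CPM in the iBET libraries. The neutrophil list (7 of 8 genes in the table) summed to at most 52.6 CPM, the mast cell and basophil list (6 genes, Mcpt4 at 0 in all libraries) to at most 45.8 CPM and the eosinophil list (3 genes) to at most 135.6 CPM. The B cell (4 genes), T and NK cell (5 genes) and stromal (4 genes) lists stayed under 1 CPM. In bulk RNA, fewer cells of a type and less RNA per cell cannot be told apart.

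IL-6, LIF and oncostatin M (OSM) are secreted ligands that signal through receptors containing gp130, the product of Il6st. The IL-12 family are heterodimers: the Il12b chain pairs with Il12a in IL-12 and with Il23a in IL-23, and the Ebi3 chain pairs with Il27 in IL-27 and with Il12a in IL-35. Dendritic cells use IL-6, IL-12 and IL-23 to steer the differentiation of T cells, and IL-10 restrains antigen-presenting cells.

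Between genes, levels were compared as CPM per kb of the longest transcript. By mean, Osm was the most abundant member in each group, with of 17.3 ± 5.68, 16.2 ± 2.39, 18.7 ± 5.49 and 25.0 ± 6.32 CPM per kb (SD, n = 5) in DMSO Ova, in DMSO IC, in iBET Ova and in iBET IC. Ebi3 came next with 15.2 ± 2.71, 15.4 ± 1.96, 10.0 ± 1.39 and 11.2 ± 1.72 CPM per kb (SD, n = 5) in the same order. With DMSO the ranges of Osm and Ebi3 overlapped, and Osm was the higher of the pair in 2 of 5 mice under either stimulus. With iBET their ranges lay apart, and Osm was higher in 5 of 5 mice with Ova and with IC. Il12b followed at 4.06, 7.84, 0.658 and 1.98 CPM per kb, and Il6 at 2.15, 2.73, 0.237 and 0.345 CPM per kb (group means in the same order). Il12b and Il6 overlapped in iBET Ova, and in the other groups Il12b lay above Il6 in every mouse. Lif had mean levels of at most 0.311 CPM per kb, and the remaining 4 members at most 0.164 CPM per kb.

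**Figure D1:**
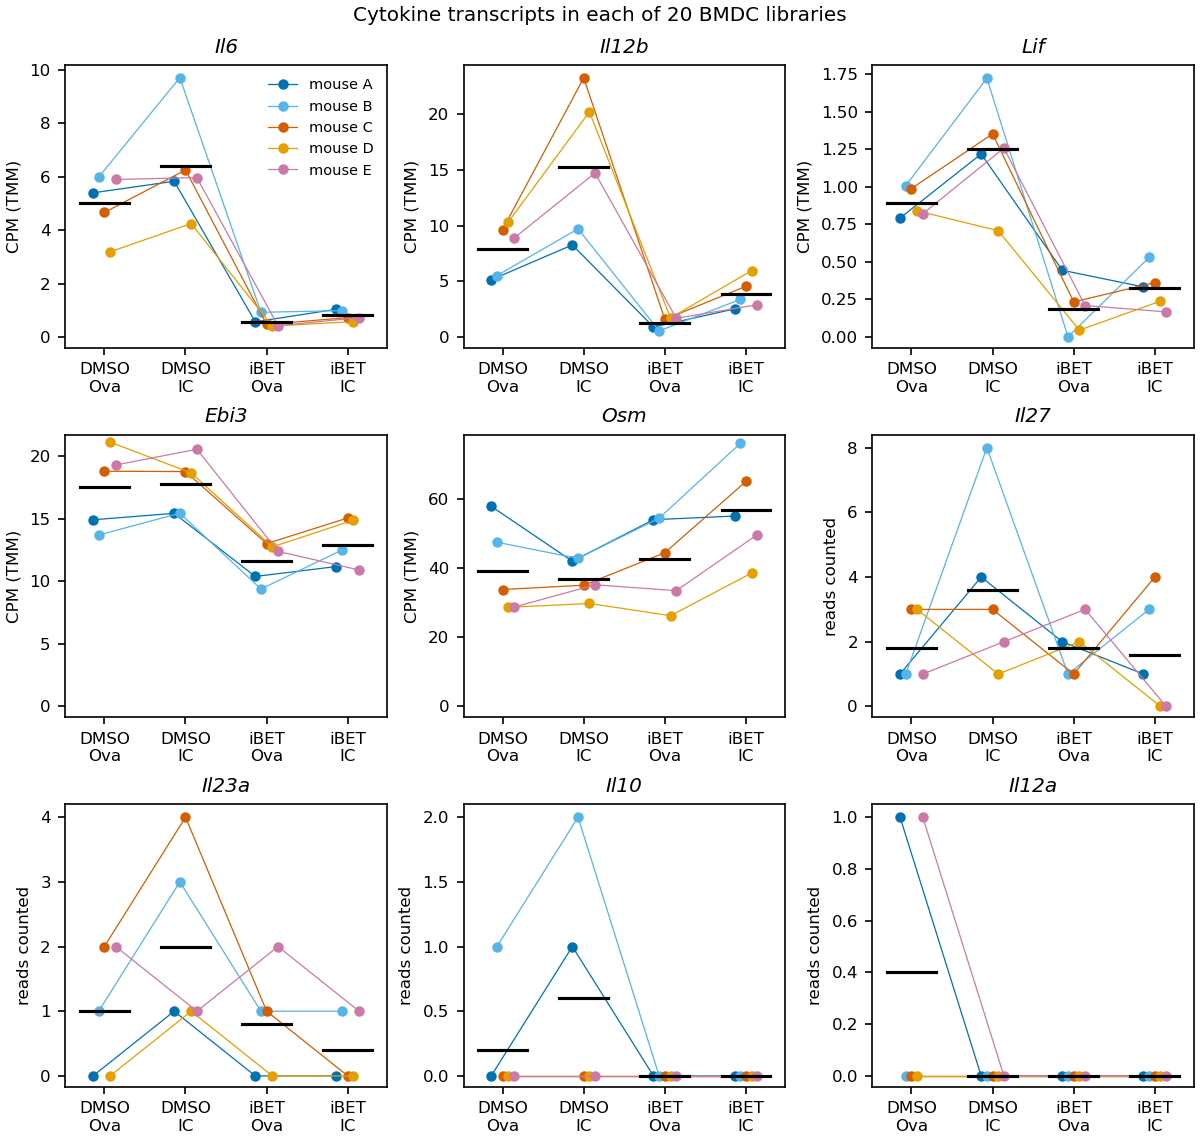
Level of each cytokine gene in the 20 libraries, as TMM-normalised CPM for the 5 tested genes and as reads counted for the 4 others. Points are libraries, thin lines join the libraries of 1 mouse and black bars are group means. Il6, Il12b, Lif and Ebi3 sit lower in the iBET groups, and Osm does not.

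To ask how BET inhibition altered these cytokines, iBET was compared with DMSO under each stimulus. With Ova, 4 of the 5 tested members (Il6, Il12b, Lif and Ebi3) fell and none rose. With IC the same 4 fell and Osm rose. Over all genes tested, 56.6% passed the threshold (Benjamini-Hochberg adjusted p under 0.05 in edgeR's quasi-likelihood test) with Ova, 27.7% higher and 28.9% lower. With IC 56.1% passed, 27.1% higher and 29% lower. Lif entered the tests through its level in the DMSO libraries, so its place among the members that fell was partly set by the filter on low counts. The macrophage marker sum was also lower with iBET, which lay mostly in Csf1r (mean 1032 CPM with DMSO and 582 CPM with iBET under Ova, and 1013 and 631 CPM under IC). Adgre1 (163 and 146 CPM under Ova, 160.4 and 159.7 CPM under IC) and Mertk (78.8 and 71.8 CPM, 96.2 and 87.2 CPM) moved little. Fcgr1 (62.7 and 14.7 CPM under Ova, 46.5 and 12.8 CPM under IC) had lower means with iBET. So did Cd68 (218 and 192 CPM, 296 and 253 CPM) and C1qa (19.7 and 12.4 CPM, 21.1 and 16.2 CPM). Among the dendritic cell markers, Flt3 (3.03 and 0.242 CPM under Ova), Irf4 (292 and 163 CPM) and Ccr7 (461 and 331 CPM) had lower means with iBET, and the abundant Cd74 (2661 and 3169 CPM) and Itgax (1962 and 2108 CPM) had higher ones. Zbtb46 (24.5 and 20.0 CPM under Ova) and Cd209a (0.281 and 0.202 CPM) were also lower, and H2-Ab1 hardly moved (289 and 287 CPM). Under IC each of these means moved in the same direction. The part of these markers in the cytokine results was not tested.

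Il6 encodes the ligand IL-6, which acts on T cells, B cells and the liver's acute phase response. Its level in mice A to E was 5.40, 5.99, 4.66, 3.19 and 5.90 CPM with DMSO and Ova, and 0.566, 0.922, 0.467, 0.405 and 0.418 CPM with iBET and Ova. With IC it was 5.83, 9.71, 6.25, 4.25 and 5.97 CPM with DMSO and 1.04, 0.985, 0.724, 0.572 and 0.723 CPM with iBET. Every iBET library lay below every DMSO library. The mean fell from 5.03 ± 1.16 to 0.556 ± 0.214 CPM with Ova and from 6.40 ± 2.01 to 0.808 ± 0.196 CPM with IC (SD, n = 5). Il6 was 9.03-fold lower with Ova (log2 fold change -3.18, standard error 0.269, edgeR adjusted p = 5.79e-09) and 7.76-fold lower with IC (log2 fold change -2.96, standard error 0.253, edgeR adjusted p = 6.79e-09). In single mice iBET left 7.09% to 15.4% of the DMSO level with Ova and 10.1% to 17.8% with IC.

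Il12b encodes the chain that IL-12 and IL-23 share. With Ova its level in mice A to E was 5.13, 5.51, 9.65, 10.3 and 8.87 CPM with DMSO and 0.889, 0.542, 1.58, 1.71 and 1.67 CPM with iBET. With IC it was 8.27, 9.71, 23.3, 20.2 and 14.7 CPM with DMSO and 2.52, 3.37, 4.55, 5.96 and 2.89 CPM with iBET. The DMSO and iBET libraries did not overlap under either stimulus. Il12b was 6.15-fold lower with Ova (log2 fold change -2.62, standard error 0.357, edgeR adjusted p = 3.56e-06) and 3.97-fold lower with IC (log2 fold change -1.99, standard error 0.318, edgeR adjusted p = 2.43e-05). The share of the DMSO level that remained was 9.83% to 18.9% with Ova and 19.6% to 34.7% with IC. In mouse E the shares were close, at 18.9% with Ova and 19.6% with IC. The difference between the stimuli in the effect of iBET on Il12b did not pass (the interaction, given below).

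Lif encodes leukaemia inhibitory factor and was near the limit of counting. It had 16 to 38 reads per library with DMSO and 0 to 14 with iBET, and the 0 was the iBET Ova library of mouse B. Its level in mice A to E was 0.793, 1.01, 0.989, 0.841 and 0.821 CPM with DMSO and Ova, 0.444, 0, 0.233, 0.0450 and 0.209 CPM with iBET and Ova, 1.22, 1.72, 1.35, 0.708 and 1.26 CPM with DMSO and IC, and 0.333, 0.530, 0.362, 0.238 and 0.167 CPM with iBET and IC. The iBET libraries lay below the DMSO libraries under both stimuli. Lif was 4.47-fold lower with Ova (log2 fold change -2.16, standard error 0.443, edgeR adjusted p = 0.000352) and 3.69-fold lower with IC (log2 fold change -1.88, standard error 0.396, edgeR adjusted p = 0.000435).

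Ebi3 encodes the chain that IL-27 and IL-35 share, and it fell by much less. With Ova its level in mice A to E was 14.9, 13.7, 18.8, 21.1 and 19.3 CPM with DMSO and 10.4, 9.38, 13.0, 12.7 and 12.4 CPM with iBET. With IC it was 15.4, 15.4, 18.8, 18.7 and 20.5 CPM with DMSO and 11.2, 12.5, 15.1, 14.9 and 10.9 CPM with iBET. The lowest DMSO library still lay above the highest iBET library in each comparison. Ebi3 was 1.52-fold lower with Ova (log2 fold change -0.60, standard error 0.133, edgeR adjusted p = 0.000717) and 1.38-fold lower with IC (log2 fold change -0.46, standard error 0.133, edgeR adjusted p = 0.00574). Without mouse E the fall with IC no longer passed (log2 fold change -0.35, edgeR adjusted p = 0.0631, against a range of 1.39e-06 to 0.0631 over its 16 alternatives). This fit did not use the pairing of libraries by mouse. With the mouse as a replicate block over mice A to E, the log2 fold change was -0.46 and passed (edgeR adjusted p = 6.17e-05). The exons of Ebi3 overlap those of Gm16712, an antisense RNA on the other strand, by 270 bases, and Gm16712 had 5 to 14 reads per library.

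Osm encodes oncostatin M and was the tested member that did not fall. With Ova its level in mice A to E was 57.8, 47.4, 33.8, 28.6 and 28.7 CPM with DMSO and 53.9, 54.4, 44.4, 26.2 and 33.4 CPM with iBET, which overlapped. Its log2 fold change was 0.11 (standard error 0.224, edgeR adjusted p = 0.691), higher in 3 of 5 mice, and the 95% interval ran from -0.36 to 0.58. With IC it was 41.9, 42.8, 35.0, 29.7 and 35.1 CPM with DMSO and 54.99, 76.0, 65.0, 38.5 and 49.6 CPM with iBET. Osm was then higher with iBET in 5 of 5 mice, although the groups overlapped through mouse D. The rise was 1.54-fold (log2 fold change 0.62, standard error 0.224, edgeR adjusted p = 0.0233). It did not pass without mouse B (log2 fold change 0.58, edgeR adjusted p = 0.0598) or without mouse C (0.56, edgeR adjusted p = 0.103), and over its 16 alternatives the adjusted p ranged from 4.18e-07 to 0.103. Neither of these fits used the pairing of libraries by mouse. With the mouse as a replicate block over mice A to E, the rise was 0.60 and passed (edgeR adjusted p = 8.37e-05).

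Osm and Lif are neighbours on chromosome 11 (GRCm38), on the same strand, with 16.5 kb between the end of Osm (4236420 to 4241026) and the start of Lif (4257557 to 4272514). With IC, Lif fell and Osm rose, in 5 of 5 mice each. The other tested members lie on chromosome 5 (Il6, 30013114 to 30019981), chromosome 11 (Il12b, 44400063 to 44414033) and chromosome 17 (Ebi3, 55952640 to 55957022), all on the plus strand.

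Groups that did not overlap were found for 4 members with Ova and 4 with IC, where 38% and 42.8% of all genes tested did not overlap. Mice A and B lay apart from mice C, D and E over many genes in an earlier analysis of these data, and no batch is named in the labels or methods. In mice A and B alone the log2 fold changes with Ova and with IC were -2.96 and -2.93 for Il6, -2.85 and -1.59 for Il12b, -1.82 and -1.75 for Lif, and -0.54 and -0.36 for Ebi3. In mice C, D and E alone they were -3.34 and -3.00 for Il6, -2.49 and -2.08 for Il12b, -2.39 and -2.05 for Lif, and -0.59 and -0.48 for Ebi3. Each of these passed in edgeR except Lif with Ova in mice A and B (edgeR adjusted p = 0.0772, range over its 16 alternatives 1.13e-06 to 0.0772). For Osm with IC the values were 0.65 in mice A and B and 0.64 in mice C, D and E, and both passed.

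**Figure D2:**
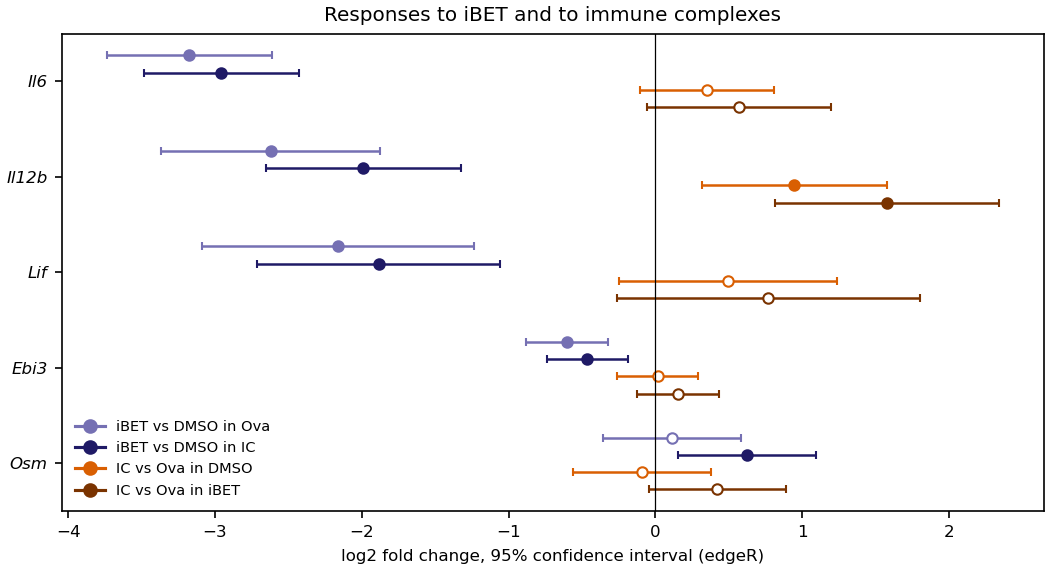
Log2 fold changes of the 5 tested cytokine genes in the 4 pairwise comparisons, with 95% confidence intervals from edgeR over 5 mice per group. Filled points passed an adjusted p of 0.05 and open points did not. Il6, Il12b and Lif lie near -2 to -3 for iBET, Ebi3 near -0.5, and Il12b is the filled point on the right for IC under either treatment.

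Promoter sequences were looked up because the members that fell moved by unlike amounts. RefSeq promoters (GRCm38.p6) matched 5 of the 9 members (Il6, Il12a, Il12b, Ebi3 and Lif). The entries for Il10, Il23a, Il27 and Osm were missing. Shown here are the 180 bases that end 21 bases before the start of the 4 members that fell. They lie at chr5:30012914-30013093 (Il6), chr11:44399863-44400042 (Il12b), chr17:55952423-55952602 (Ebi3) and chr11:4257368-4257547 (Lif), on the plus strand. Capitals mark matches to the motifs listed after them.
Il6: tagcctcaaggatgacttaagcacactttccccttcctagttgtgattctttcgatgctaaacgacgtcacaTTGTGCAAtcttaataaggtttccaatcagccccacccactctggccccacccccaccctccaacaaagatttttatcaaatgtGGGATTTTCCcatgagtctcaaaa
Il12b: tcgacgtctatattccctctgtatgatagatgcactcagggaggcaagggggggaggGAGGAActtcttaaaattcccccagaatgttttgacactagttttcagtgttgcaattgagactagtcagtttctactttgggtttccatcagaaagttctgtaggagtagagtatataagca
Ebi3: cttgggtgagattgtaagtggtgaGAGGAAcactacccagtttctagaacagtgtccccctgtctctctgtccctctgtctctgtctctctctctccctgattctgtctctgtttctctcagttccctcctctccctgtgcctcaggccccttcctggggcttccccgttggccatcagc
Lif: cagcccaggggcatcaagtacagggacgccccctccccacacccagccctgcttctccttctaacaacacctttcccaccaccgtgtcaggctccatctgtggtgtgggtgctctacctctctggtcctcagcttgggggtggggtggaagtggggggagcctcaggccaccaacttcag

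On both strands, 7 motifs were searched in the same 180-base window of 32851 promoters. The NF-kB motif (GGG, any 3 bases, TT, any base, C; 8.96% of promoters) was found in Il6, from 44 to 35 bases before the start, and the C/EBP motif TTNCNNAA (28%) was found there from 128 to 121 bases before the start. The PU.1 motif GAGGAA (17%) was found in Il12b, 143 to 138 bases before the start, and in Ebi3, 176 to 171 bases before it. The AP-1 motif TGANTCA (5.06%), the TATA box TATAAA (9.34%), the IRF motif (GAAA and GAAA with 2 bases between; 2.02%) and the CRE motif TGACGTCA (1.21%) were not in these windows, and the Lif window held none of the 7. No matches overlapped. A match describes letters only, and these data hold no measurement of binding.

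To ask which members responded to immune complexes, IC was compared with Ova under each treatment. These comparisons use the same libraries as those of iBET. With DMSO, Il12b rose and no other member passed, where 20.3% of all genes tested passed and 9.59% rose. With iBET, Il12b again was the 1 member that passed, where 11.8% of all genes did and 5.19% rose. With library sizes alone in place of TMM, the share of higher genes among those that passed moved from 47.3% to 18.3% with DMSO and from 43.9% to 13.4% with iBET.

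Il12b rose from 7.90 ± 2.41 to 15.2 ± 6.50 CPM with DMSO (SD, n = 5; 1.93-fold; log2 fold change 0.95, standard error 0.302, edgeR adjusted p = 0.0323). It was higher with IC in 5 of 5 mice, by 1.61-fold to 2.41-fold, although the groups overlapped because mice A and B with IC lay below mouse D with Ova. With iBET it rose from 1.28 ± 0.530 to 3.86 ± 1.40 CPM (SD, n = 5; 2.99-fold; log2 fold change 1.58, standard error 0.366, edgeR adjusted p = 0.00811). There the groups did not overlap, as for 10% of all genes tested, and the mice ranged from 1.73-fold (mouse E) to 6.22-fold (mouse B). Even so, the highest Il12b level with iBET and IC, 5.96 CPM in mouse D, was within the range of the DMSO Ova libraries. The rise with DMSO did not pass without mouse C (log2 fold change 0.84, edgeR adjusted p = 0.148), without mouse D (0.94, edgeR adjusted p = 0.0802), without mouse E (1.00, edgeR adjusted p = 0.0826) or in mice A and B alone (0.75, edgeR adjusted p = 0.0811). It passed in mice C, D and E alone (1.03, edgeR adjusted p = 0.00191), and over its 16 alternatives the adjusted p ranged from 4.75e-10 to 0.148. None of these fits on fewer mice used the pairing of libraries by mouse. With the mouse as a replicate block over mice A to E, the rise with DMSO was 0.92 and passed (edgeR adjusted p = 1.18e-05). With iBET the values were 2.01 in mice A and B and 1.43 in mice C, D and E, and both passed.

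Il6 was higher with IC in 5 of 5 mice under either treatment, with log2 fold changes of 0.35 with DMSO (standard error 0.218, edgeR adjusted p = 0.275) and 0.57 with iBET (standard error 0.300), and neither passed. With the mouse as a replicate block, the value with DMSO was 0.33 and passed (edgeR adjusted p = 0.0198, range over its 16 alternatives 0.00414 to 0.487), whereas DESeq2 with the same block gave 0.34 without passing (adjusted p = 0.0694). Osm had a log2 fold change of -0.09 with DMSO (higher in 3 of 5 mice) and 0.42 with iBET (standard error 0.224), where it was higher in 5 of 5 mice without passing. With the replicate block the value with iBET was 0.44 and passed (edgeR adjusted p = 0.00545, range over its 16 alternatives 0.000849 to 0.475). With the block 38.1% of all genes passed for IC with DMSO and 28.9% with iBET. Lif had log2 fold changes of 0.49 and 0.77, with 95% intervals from -0.25 to 1.24 and from -0.26 to 1.80. Ebi3 had 0.02 and 0.16, with intervals from -0.26 to 0.29 and from -0.13 to 0.44.

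Whether iBET acted differently with IC than with Ova was tested as the interaction. No member passed in edgeR, where 5 of all genes tested (0.0401%) did. Of the 12465 genes tested, 543 had an unadjusted p under 0.05 in edgeR, and no member was among them. No member was called by DESeq2, and none under any of the 15 alternatives. With the replicate block 2 members, Il12b and Osm, were among the 1395 genes with an unadjusted p under 0.05. Neither passed after adjustment (edgeR adjusted p = 0.183 and 0.169), where 0.818% of all genes did. The interaction of Il12b was 0.63 on the log2 scale (95% interval -0.36 to 1.62) and that of Osm 0.51 (-0.15 to 1.17), and both were above 0 in 5 of 5 mice. For Il6 it was 0.22 (-0.55 to 0.98), for Ebi3 0.14 (-0.25 to 0.53) and for Lif 0.27 (-0.96 to 1.51). In mice A and B alone the interaction of Il12b was 1.25, and in mice C, D and E alone it was 0.41.

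Of the members too low to test, Il10 encodes the anti-inflammatory cytokine IL-10. It had 4 reads in all, 1 in DMSO Ova and 3 in DMSO IC, from mice A and B, and 0 in the 10 iBET libraries. Il12a, the partner of Il12b in IL-12, had 2 reads in all, both in DMSO Ova. Il23a, its partner in IL-23, had 21 reads, with 5 in DMSO Ova, 10 in DMSO IC, 4 in iBET Ova and 2 in iBET IC. Il27, the partner of Ebi3, had 44 reads, with 9, 18, 9 and 8 in the same order. The highest library was the DMSO IC library of mouse B with 8 reads. Il27 shares 103 bases of exon with Apobr on the other strand, which had 323 to 1406 reads per library, and since the strand setting of the counting is not given in the sources used here, reads of the pair may be mixed. A count of 0 over the libraries of a group allows up to 3 reads. Il23a had reads in all 5 DMSO IC libraries and in 2 of the 5 iBET IC libraries, and no change of these 4 genes was tested.

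Per kb, the shared chains stood far above their partners in each of the 20 libraries. From pooled counts, Il12b was 134-fold above Il23a over all libraries. The ratio was 160 in DMSO Ova (exact 95% counting interval 68.3 to 494), 152 in DMSO IC (82.6 to 318), 30.4 in iBET Ova (11.6 to 113) and 187 in iBET IC (51.5 to 1550.2), and rested on 2 to 10 reads of Il23a per group. Against Il12a, Il12b was 302-fold higher in DMSO Ova, with 2 reads of Il12a (83.4 to 2499.9). With 0 reads of Il12a in the other groups, it was at least 384-fold higher in DMSO IC, at least 30.6-fold higher in iBET Ova and at least 94.3-fold higher in iBET IC, taking 3 reads per group as the floor. Ebi3 was 197-fold, 97.7-fold, 121-fold and 158-fold above Il27 in these groups, with the DMSO groups first and Ova before IC. Of the 23 reads from the partners of Il12b, 21 were Il23a, a share of 91.3% (exact Clopper-Pearson 95% interval 71.96% to 98.9%), or 88.8% per kb. The intervals cover counting error only, as do all floors given here.

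**Figure D3:**
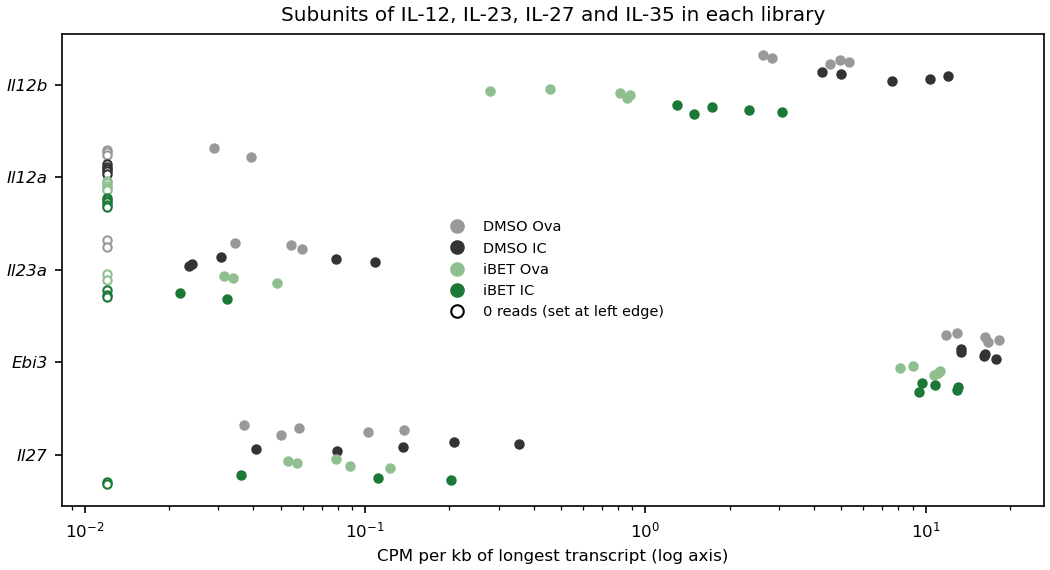
Levels of the IL-12 family subunit genes in each of the 20 libraries, as CPM per kb of the longest transcript on a log axis. Open symbols at the left edge are libraries with 0 reads. Il12b and Ebi3 lie to the right of Il12a, Il23a and Il27 in every group, and Il12b moves left in the iBET groups.

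Within groups, the mice differed in which members were high. Mice A and B had lower Il12b and Ebi3 than their group means in all 4 of their libraries, and mice C and D higher in all 4. The mean deviation in log2 CPM was -0.56 and -0.53 for Il12b and -0.19 and -0.21 for Ebi3 in mice A and B. In mice C and D it was 0.44 and 0.54 for Il12b and 0.15 and 0.18 for Ebi3. Mouse E lay between, with 0.11 for Il12b and 0.06 for Ebi3. Osm was higher in mice A and B (0.30 and 0.36) and lower in mice D and E (-0.46 and -0.22), and in mouse C it was near the group mean (0.03, above it in 2 of 4 libraries). Il6 was highest in mouse B (0.48) and lowest in mouse D (-0.47). The correlation of these deviations over the 20 libraries was 0.88 between Il12b and Ebi3, -0.71 between Il12b and Osm, -0.73 between Il12b and Il6, and 0.65 between Il6 and Osm. The 4 libraries of a mouse share their source, so these values are a description of 5 animals. The summed dendritic cell markers averaged 5474 and 4987 CPM in mice A and B and 6702, 7851 and 6768 CPM in mice C, D and E. The macrophage markers averaged 1616 and 1520 CPM in mice A and B and 1198, 1258 and 1143 CPM in mice C, D and E. Their part in the differences between mice was not tested.

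**Figure D4:**
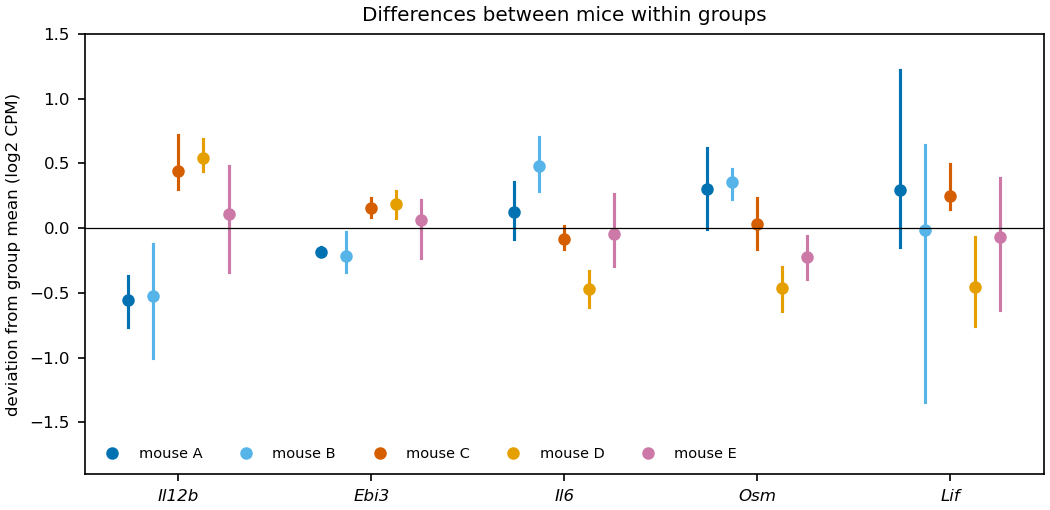
Deviation of each library from its group mean in log2 CPM for the 5 tested cytokine genes, by mouse. Points are the mean over the 4 libraries of a mouse and lines run from its lowest to its highest library. Il12b and Ebi3 are below 0 in mice A and B, where Osm is mostly above 0.

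The genes most like each member were those with the highest correlation of log2 CPM over the 20 libraries, which share treatment and mouse. For Il6 they were March1, F630111L10Rik and Slfn10-ps (r of 0.98 each), and for Il12b Cyth1, Fabp5 and Id2 (0.98, 0.97 and 0.97). For Ebi3 they were St14, Srms and AW112010 (0.96, 0.96 and 0.95), with Il12b at 0.90. For Lif they were Hk3, Senp3 and Narfl (0.93, 0.92 and 0.91). For Osm they were Spp1, Itgam and Zfp658 (0.89, 0.87 and 0.85). On deviations from the group means they were Cxcl2, Ccr1 and Spp1 for Osm (0.94, 0.92 and 0.92), St14, Limd2 and Gbp4 for Ebi3 (0.91, 0.90 and 0.90) and Epsti1, Crxos and Dcaf4 for Il12b (0.95 each). For Il6 they were Ccdc173, F5 and F630028O10Rik (0.94, 0.88 and 0.88), and for Lif 4930556M19Rik, Mum1 and Hk3 (0.80, 0.76 and 0.72).

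Of other genes of these families and their pathway, the relatives were mostly silent, with 2 of 11 tested. Clcf1, a gp130 ligand, fell with iBET (log2 fold change -2.44 with Ova and -2.14 with IC). Cntf, another, rose with Ova (0.93), and with the replicate block also with IC (0.51). Counts of the lists that follow are read beside the 56.6% (Ova) and 56.1% (IC) of all genes that passed for iBET. Of the 11 tested receptor chains (13 listed), 6 fell and 1 rose with Ova (63.6% passed), and 5 fell and 1 rose with IC (54.5%). Those that fell include Il23r (-2.90 and -2.53 with Ova and IC), Il12rb1 (-2.27 and -1.26), which serves both IL-12 and IL-23, Il10rb (-1.16 and -1.09), Il6ra with Ova (-0.66) and Il10ra with IC (-0.49). Il23r and Il12rb1 entered the tests through the DMSO libraries (iBET means at most 0.375 and 0.201 CPM). Their place among the chains that fell was thus partly set by the filter on low counts. Il20rb rose with Ova (0.57) and Lifr, the LIF receptor, with IC (1.16). The median log2 fold change of the receptor chains was -0.44 with Ova and -0.37 with IC, against -0.003 and -0.005 over all genes tested.

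The signalling list (15 genes, all tested) held 4 genes that rose and 6 that fell with iBET and Ova (66.7% passed), and 4 and 7 with IC (73.3%), with medians of -0.36 and -0.28. Socs3, a feedback inhibitor of gp130 signalling, rose (1.36 and 1.33), as did Pias3, Ptpn11 and Jak1 (0.17 to 0.67). Stat4, which relays IL-12, fell (-2.50 and -2.38), as did Jak2 (-1.02 and -0.997), Stat5b (-0.51 and -0.66), Tyk2 (-0.58 with Ova) and Socs2 (-0.61 with IC). Of 27 tested transcription regulators of cytokine genes (28 listed), 6 rose and 12 fell with Ova (66.7%), and 6 and 13 with IC (70.4%), with medians of -0.31 and -0.25. Bcl3 (-2.55 and -2.69), Batf3 (-1.75 and -2.08), Atf3 (-1.51 and -1.41) and Egr2 (-1.17 and -1.26) fell. Cebpd (1.39 and 1.03), Egr1 (1.15 and 0.89), Nfkbiz (1.02 and 1.00), a co-activator of Il6 transcription, Nfil3 (0.60 with Ova) and Maf (0.92 with IC) rose.

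Among 12 regulators of mRNA decay, 4 rose and 3 fell under each stimulus (58.3%, near the share of all genes), with medians of 0.06 and -0.05. Arid5a, which stabilises Il6 mRNA, rose (0.94 and 0.97), as did Rc3h1 (0.86 and 0.77), Rc3h2 (0.60 and 0.47) and Zfp36 (0.58 and 0.75), which promote the decay of cytokine mRNAs. Hnrnpd (-1.04 and -1.06), Zfp36l1 (-0.66 and -0.93) and Zc3h12c (-0.52 and -0.82) fell. Of 10 tested ligands of other families (18 listed), 6 fell and 1 rose with Ova (70% passed), and 7 and 1 with IC (80%), with medians of -0.90 and -0.84. Il4 (-1.57), Il1b (-1.43), Il1a (-1.17) and Csf1 (-1.16) were the 4 largest falls with Ova, and Il1rn (-1.53), Csf1 (-1.31), Il4 (-1.25) and Il15 (-1.19) those with IC. Il4 was near the floor, at means of 0.437 and 0.502 CPM with DMSO and at most 0.414 CPM in any iBET library. It entered the tests through the DMSO libraries, so its fall was partly set by the filter on low counts. Tgfb1 rose (0.74 and 0.77).

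With IC against Ova, 4 of the 10 other ligands rose with DMSO and 3 with iBET (40% and 30%), and none fell. Over all genes tested, 20.3% passed with DMSO and 11.8% with iBET. In the same order, 18.2% and 9.09% of the tested receptor chains passed, and 26.7% and 6.67% of the signalling genes. The shares were 18.5% and 14.8% of the tested transcription regulators, and 25% and 16.7% of the mRNA decay regulators. Tnf (1.78), Il1b (1.45), Il1a (1.43) and Il1rn (0.88) rose with DMSO, as did Il1b (2.15), Il1a (1.65) and Tnf (1.10) with iBET, beside the 0.95 and 1.58 of Il12b. Of the receptor chains, Lifr (-1.08) and Il6ra (-0.80) fell with DMSO and Il10ra (-0.22) with iBET. Of the signalling genes, Stat5a (0.63) and Stat5b (0.53) rose and Tyk2 (-0.52) and Pias3 (-0.49) fell with DMSO, and Stat5b (0.38) rose with iBET. Of the transcription regulators, Cebpb (1.07), Atf3 (0.71), Jun (0.52) and Hif1a (0.49) rose with DMSO, Atf3 (0.81), Cebpb (0.74) and Bhlhe40 (0.49) rose with iBET, and Irf3 fell under both treatments (-0.52 and -0.55). Of the mRNA decay regulators, Zc3h12c (0.64), Cnot7 (0.45) and Elavl1 (0.28) rose with DMSO, and Zc3h12c (0.33) and Cnot7 (0.28) with iBET. No relative passed. With the replicate block, 38.1% of all genes tested passed with DMSO and 28.9% with iBET. Of the 27 tested transcription regulators, 9 then rose and 2 fell with DMSO, and 11 rose and 4 fell with iBET. The 11 tested receptor chains then had 2 that rose and 4 that fell with DMSO, and 2 and 3 with iBET. With iBET the signalling list (15 genes) had 3 and 3, and the mRNA decay regulators (12 genes) 3 and 2. No gene of these lists passed the interaction test in edgeR without the block. With the block 1 did, Il1rn, which encodes the IL-1 receptor antagonist (-0.64, edgeR adjusted p = 0.0234, below 0 in 5 of 5 mice; 0.96 without the block).

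**Figure D5:**
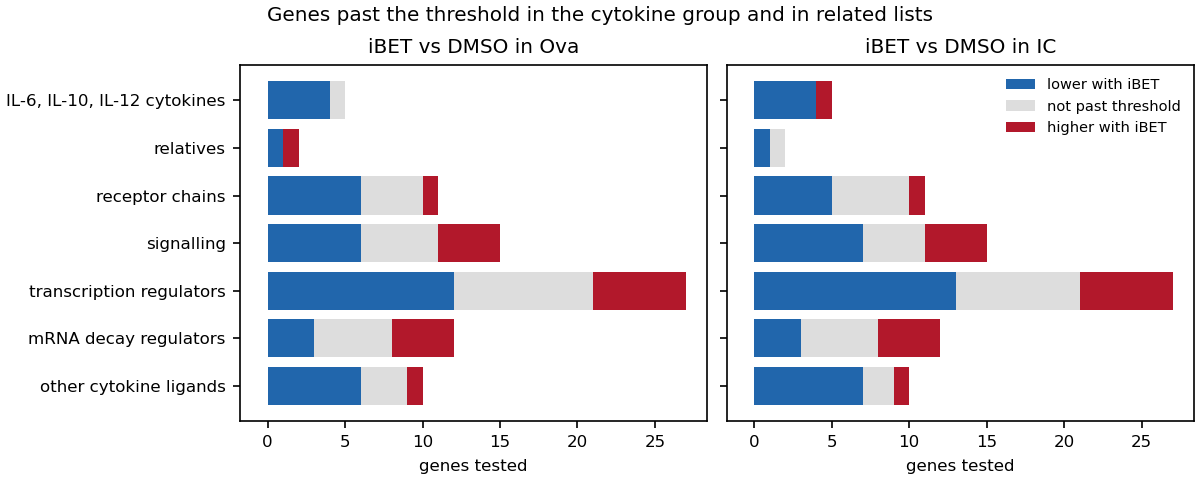
Number of tested genes that passed an adjusted p of 0.05 in edgeR for iBET against DMSO, by list and stimulus (blue lower, red higher, grey not past the threshold). Lower genes outnumber higher ones among the cytokine members (4 to 0 with Ova, 4 to 1 with IC) and the receptor chains. They also do so among the other ligands (6 to 1 and 7 to 1), the transcription regulators (12 to 6 and 13 to 6) and the signalling genes (6 to 4 and 7 to 4). The regulators of mRNA decay are split 4 higher to 3 lower. Over all genes tested, 27.7% were higher and 28.9% lower with Ova, and 27.1% and 29% with IC. Lif, Il23r, Il12rb1 and Il4 count as lower partly through the filter on low counts.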

How the data were processed

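Gene expression was measured by RNA-seq in 20 BMDC libraries (4 groups of 5 mice). Per the labels and methods, the authors trimmed reads (Trim Galore), mapped them with HISAT2 (mm10), used featureCounts for gene counts and deposited the raw counts. The authors also deposited signal values, which are these counts divided by 1 size factor per library. The annotation, the strand setting and the handling of reads shared between genes are not given in the sources used here.

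Counts were filtered with filterByExpr (a minimum count of 10, equal to 0.459 CPM in the median library), normalised with TMM and fitted in edgeR 4.0.16 (R 4.3.3) over the 20 libraries with group as the factor, and contrasts were taken with its quasi-likelihood test. Benjamini-Hochberg adjustment ran over 12465 genes, with a threshold of 0.05. Log2 CPM used a prior count of 2. Gene positions and lengths came from GENCODE M21 (GRCm38), and reads per kb used the longest transcript. Mouse letters pair the libraries: those of 1 mouse deviated together from their group means (correlation across genes at least 0.307 in 30 pairs, mean 0.524). Replicates differed by more than counting noise. The alternatives were the mouse as a replicate block, DESeq2 1.42.0 without and with the block, DESeq2 size factors, library size only, 3 surrogate variables from sva 3.50.0, no filter, the 10 libraries compared, the signal values in limma 3.58.1 (log2, pseudocount 1), each mouse left out, mice A and B only, and mice C, D and E only. The block was used only where named, so the fits on fewer mice or libraries left out the pairing. The tests were tested on simulated data.

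All 9 members were named in every comparison. From each other list, the genes that passed with the largest log2 fold changes were named, at most 4 in each direction, and the 3 genes most correlated with each tested member. The members, lists, marker genes and motifs were chosen with earlier results of these data known. The result of 1 marker list is not reported here.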

Additional observations from a re-analysis of the deposited data

How the results depend on the processing

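The falls of Il6, Il12b, Lif and Ebi3 and the rise of Osm with iBET under IC kept their direction under each of 16 alternatives, and their calls except where stated beside the values. The number of members called for IC against Ova with DMSO was 1, and became 2 with the replicate block and with surrogate variables, and 0 with library size only, with the 10 libraries compared, with limma and in mice A and B only. Leaving out 1 mouse gave 0 to 1. With library size only, the 10 libraries and limma, Il12b kept its direction with adjusted p of 0.0547, 0.0581 and 0.0821. With iBET the number was 1, and became 2 with the replicate block in edgeR and in DESeq2 and 3 with surrogate variables (Il12b, Il6 and Osm). The replicate block changed no other member's call. Ebi3 for IC against Ova with DMSO, a log2 fold change of 0.02, became -0.094 with library size only, -0.0065 with surrogate variables and -0.014 in mice C, D and E, and -0.0073 to 0.074 on leaving out 1 mouse. Osm in that comparison became 0.15 in mice C, D and E, and -0.166 to 0.046 on leaving out 1 mouse, and the interaction of Lif -0.17 to 0.953 on leaving out 1 mouse. Library size only moved the median log2 fold change of all genes by -0.108 and -0.107 for IC against Ova with DMSO and iBET, which is about the shift of Ebi3. The cause of the other changes was not tested. Over all genes, calls for IC against Ova rose from 2531 to 4755 with DMSO and from 1474 to 3601 with iBET under the block, to 4535 and 3540 in DESeq2 with the block and to 4062 and 3102 with surrogate variables, and fell to 500 and 296 in mice A and B. Library size only gave 2343 with iBET, and leaving out a mouse gave as few as 1180 and 643. Calls for the interaction went from 5 to 102 with the block, 24 and 187 in DESeq2 without and with it, 47 with surrogate variables, 13 in mice C, D and E, 0 in mice A and B, and 0 to 2 on leaving out a mouse. Lif, at 0 to 14 reads with iBET, and the untested members are limited by depth.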
